A study of Homo sapiens with 6 samples.

Results

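The mRNAs of the actomyosin and focal adhesion cytoskeleton were examined in HT1080 cells, a human fibrosarcoma line, with stable overexpression of PGK1. The genes were chosen by symbol from a fixed list of 44, with no rule on their values, with earlier results of these data known. All 44 were found, each on 1 entry, among 21619 entries. They fall into contractile genes (22: actins, myosin II with its kinases, and thin filament proteins), filament cross-linkers (9), focal adhesion proteins (4), proteins of filament assembly and turnover (6), and the transcription factor SRF with its cofactors (3). PolyA RNA was sequenced in 6 libraries, 3 labelled as PGK1-overexpressing cells (PGK1_OE) and 3 labelled wild type (WT). PGK1 is the glycolytic enzyme phosphoglycerate kinase 1, and both groups are the same line with no further agent named. Whether WT means the untouched parent line or a vector control, and whether the overexpressing line is 1 clone or a pool, is not stated in the labels. The deposited WT values carry a name unlike the WT titles, and its meaning is not given. Nothing says that the replicates are separate cultures, so p-values here reflect the variation among these 6 libraries alone, and that variation may be technical.

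Actin monomers assemble into filaments, and nonmuscle myosin II pulls on them to produce contractile force. Tropomyosins, calponins and caldesmon run along or bind the filament and set which motors and severing proteins reach it, while alpha-actinins, filamins, plastins and fascin join filaments into bundles and networks. At focal adhesions talin and vinculin couple the filaments to integrins in the plasma membrane. Monomeric actin holds the MRTF cofactors in the cytoplasm, and their release lets them drive SRF at CArG boxes in the promoters of many of these same genes.

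Promoters were searched first, because SRF recognises a short DNA element, the CArG box, that many genes of this system carry. RefSeq promoters on GRCh38.p14, from 250 bases before to 50 bases after the start site, were matched by symbol for 40 of the 44 genes. ACTB, MYL9, TAGLN and FSCN1 were not matched. A CArG box, searched by its consensus and read the same on both strands, was in the window of 7 of the 40 (17.5%), against 351 of all 27305 promoters (1.29%) and 108 of the 10828 promoters of genes tested here (0.997%). A match describes letters in this window and is not a site shown to be bound. Of the 7, 5 windows are shown, to let the elements be compared, with the box in capitals, written 5′ to 3′ on the gene's strand and ending at or before the start site.

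ACTG1: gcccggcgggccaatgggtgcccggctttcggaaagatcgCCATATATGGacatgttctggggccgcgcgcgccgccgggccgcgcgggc
CNN2: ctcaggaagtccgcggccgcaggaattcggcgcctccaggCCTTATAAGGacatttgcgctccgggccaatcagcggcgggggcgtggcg
TPM4: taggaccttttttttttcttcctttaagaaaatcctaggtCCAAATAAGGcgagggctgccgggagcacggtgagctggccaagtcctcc
FLNA: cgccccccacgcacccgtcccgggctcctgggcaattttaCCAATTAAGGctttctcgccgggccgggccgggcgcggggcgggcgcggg
SRF: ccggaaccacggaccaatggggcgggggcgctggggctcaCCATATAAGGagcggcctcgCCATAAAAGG

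These windows lie at chr17:81512844-81512933, minus strand (ACTG1), chr19:1026479-1026568, plus strand (CNN2), chr19:16067325-16067414, plus strand (TPM4), chrX:154374679-154374768, minus strand (FLNA), and chr6:43171199-43171268, plus strand (SRF), all in GRCh38.p14 and upstream of the RefSeq start site. Their boxes begin 94 bases before the start site in ACTG1 and FLNA, 89 in CNN2 and 173 in TPM4. SRF holds a pair of boxes, 30 and 10 bases before its start. MYLK and ROCK2 held the other matches and are not shown. Some RefSeq start sites lie well inside the GENCODE 29 gene, by 263783 bases in MYLK, 11048 in ACTG1 and 2893 in ROCK2. The nearest GENCODE 29 transcript start is 34 bases away in MYLK and 852 in ROCK2, and coincides with the RefSeq start in ACTG1. The hexamer GGGCGG, the core of the GC box, was in 36 of the 40 windows on either strand (90.0%) and in 68.2% of windows of tested genes. TATAAA was in 4 windows (10%), those of LCP1, MYLK, ROCK2 and SRF, and in 6.05% of windows of tested genes.

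Libraries held 34425162 to 40538274 counts. PGK1 itself stood at 12660 ± 597 CPM in PGK1_OE and 523 ± 4.03 CPM in WT (SD, n = 3 each, as for every mean below), which fits the labels. Levels are normalised CPM, the count scaled by library size with TMM factors, unless FPKM is named, and FPKM, which also divides by transcript length, is used where genes are set side by side. Both are relative to a library's own RNA, and in bulk RNA fewer cells with an mRNA and less of it per cell cannot be told apart. Of 10 mesenchymal markers 8 reached 1 FPKM in at least 1 group, led by VIM, with THY1 and PDGFRB under it, and their summed level, most of it VIM, was 2247 to 2261 FPKM in PGK1_OE and 1243 to 1454 FPKM in WT. The members went both ways: VIM, FN1, SPARC, COL6A1 and CD44 rose, while CDH2 (105 ± 4.57 CPM in PGK1_OE and 153 ± 2.05 CPM in WT, log2 fold change -0.54 with SE 0.043, edgeR adjusted p = 3.56e-07), COL6A2 and THY1 fell. Of 8 epithelial markers only KRT8 and KRT18 reached 1 FPKM, EPCAM and CLDN3 had 0 counts in every library, and the summed level, nearly all of it these keratins, was 178 to 189 FPKM in PGK1_OE and 86.6 to 97.4 FPKM in WT. KRT8 and KRT18 rose, whereas CDH1, E-cadherin, fell, with 0, 0 and 0 counts in the PGK1_OE libraries, against 17, 28 and 16 counts in the WT libraries. ESRP1, an epithelial splicing factor, fell as well, with 6, 0 and 0 counts in the PGK1_OE libraries, against 94, 83 and 80 counts in the WT libraries. Smooth muscle markers summed to 1.52 to 1.83 FPKM in PGK1_OE and 0.624 to 0.762 FPKM in WT, mostly from SYNM, with MYOCD at 0 counts in every library. Striated muscle markers stayed at or under 0.193 FPKM in sum, and blood markers at 0.163 to 0.389 FPKM in PGK1_OE and 0.192 to 0.399 FPKM in WT, with PTPRC and CD14 at 0 counts. Endothelial markers summed to 1.73 to 2.49 FPKM in PGK1_OE and 0.680 to 0.803 FPKM in WT, mostly PECAM1, with CDH5 and KDR near 0. The part of these markers in the results below was not tested.

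Most of this system was more abundant in PGK1-overexpressing cells. The summed FPKM of the 44 genes was 9746, 9870 and 9869 in PGK1_OE, against 6530, 6333 and 6468 in WT, a 1.53-fold higher level, and 1.39-fold higher with ACTB and ACTG1 left out. Of 43 genes that passed the filter on low counts, 29 rose, 11 fell and 3 did not pass an edgeR adjusted p of 0.05. CNN1, the only one removed by that filter, had 4, 2 and 3 counts in the PGK1_OE libraries, against 13, 7 and 4 counts in the WT libraries. Most genes in the table changed as well, with 71.2% of 14322 entries called, 35.4% higher and 35.8% lower in PGK1_OE. The share called among the 43 was 93.0%, with 67.4% higher and 25.6% lower. Because these are abundant mRNAs, the 39 with a mean log2 CPM of at least 5 were also read against the 6543 entries at that level, of which 84.0% were called and 43.1% were called higher. Of the 39, 37 were called and 26 were higher (66.7%). The difference between these shares was not tested.

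The median log2 fold change was 0.43 over the 43 genes, against -0.018 over all entries, whereas the median size of change without its sign was 0.56 over the 43 and 0.56 over all entries. Called changes reached 2-fold in 9 of the 43, and in 24.1% of all entries. These were MYH10, MYL6, MYL9, TPM3, CNN2, TAGLN2, FSCN1 and CFL1, all higher, and LIMA1, lower. The normalised CPM of the groups did not overlap in 41 of the 43 genes, nor in 76.4% of all entries, and the 2 that did overlap were TPM1 and PALLD. The values over all entries in this paragraph include low-count entries and were not matched to the 43 genes for level. In the plot of fold changes by role, the contractile, focal adhesion and assembly genes lie mostly to the right of 0 and the cross-linkers lie on both sides.

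**Figure D1:**
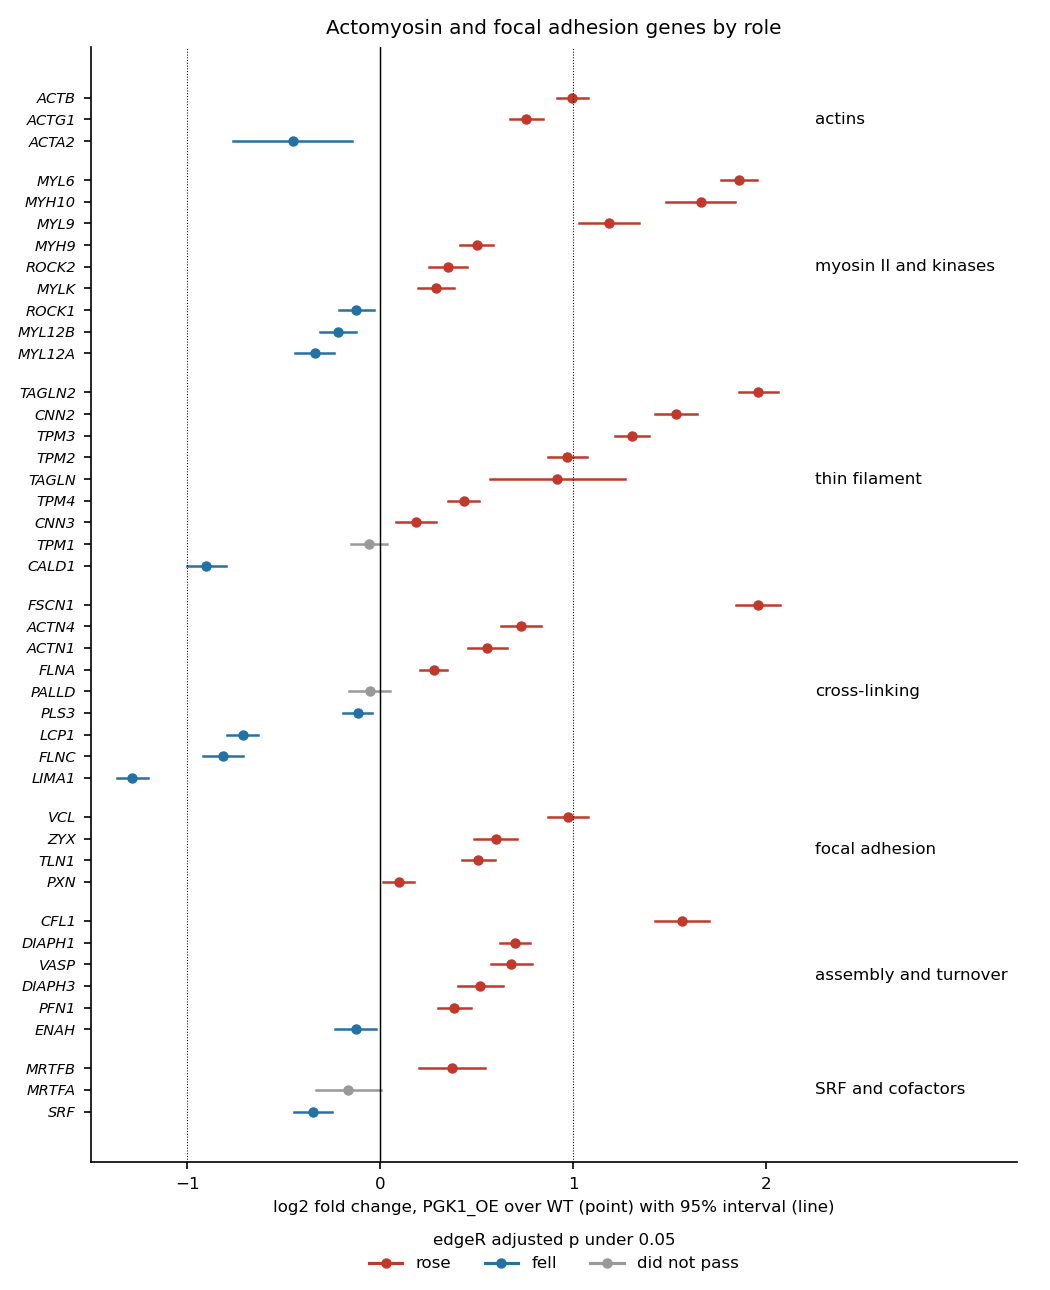
Log2 fold change of PGK1_OE over WT (x axis) for the 43 tested genes (y axis, grouped by role), with points for edgeR estimates, lines for their 95% intervals and dotted lines at a 2-fold change. The 8 genes beyond the right dotted line are MYL6, MYH10, MYL9, TAGLN2, CNN2, TPM3, FSCN1 and CFL1, and LIMA1 is the 1 gene beyond the left.

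The cytoplasmic actins rose and smooth muscle actin fell. ACTB (chromosome 7, 5527147 to 5563784, minus strand), beta-actin and the most abundant mRNA of the system in both groups, had 160251, 168634 and 147428 counts in the PGK1_OE libraries, against 79217, 71142 and 78180 counts in the WT libraries. Its level was 2075, 2222 and 2189 FPKM in PGK1_OE, against 1128, 1086 and 1102 FPKM in WT. The groups lay far apart, at a 1.99-fold difference (log2 fold change 1.00 with SE 0.037, edgeR adjusted p = 7.28e-10). ACTG1, gamma-actin and the second most abundant, had 119605, 125234 and 107564 counts in the PGK1_OE libraries, against 69694, 61364 and 68561 counts in the WT libraries. That is 1418, 1483 and 1483 FPKM in PGK1_OE, against 899, 852 and 898 FPKM in WT, again with no overlap (1.69-fold, log2 fold change 0.76 with SE 0.039, edgeR adjusted p = 8.96e-09). Together they took 0.690%, 0.728% and 0.711% of all counts in PGK1_OE, against 0.397%, 0.385% and 0.405% in WT. These 2 mRNAs encode nearly the same protein, and GENCODE 29 names 10 pseudogenes after ACTB and 20 after ACTG1, so reads may be split among the copies and both values are uncertain to that extent.

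ACTA2, smooth muscle alpha-actin and a marker of contractile myofibroblasts, had 1780, 1423 and 1422 counts in the PGK1_OE libraries, against 1841, 2292 and 1895 counts in the WT libraries. It fell (40.2 ± 4.31 CPM in PGK1_OE and 55.1 ± 8.62 CPM in WT, log2 fold change -0.45 with SE 0.129, edgeR adjusted p = 0.0169). The groups did not overlap, with WT replicate 2 the highest library. The ACTA2 call was lost without PGK1_OE replicate 2 (edgeR adjusted p = 0.0583), without PGK1_OE replicate 3 (0.0547) and in a fit with replicate numbers as blocks (edgeR adjusted p = 0.0849). ACTA2 overlaps FAS and STAMBPL1 on the opposite strand, and strand use in counting is not given, so its value may include their reads.

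Within myosin II the light and heavy chains moved unequally. MYH9, the main nonmuscle heavy chain (myosin IIA), had 37419, 39389 and 34376 counts in the PGK1_OE libraries, against 26523, 23113 and 25613 counts in the WT libraries, and rose 1.41-fold (log2 fold change 0.50 with SE 0.040, edgeR adjusted p = 3.66e-07). MYH10, the heavy chain of myosin IIB (chromosome 17, 8474205 to 8630761, minus strand), had 1977, 2040 and 1854 counts in the PGK1_OE libraries, against 655, 498 and 628 counts in the WT libraries. It rose 3.16-fold (log2 fold change 1.66 with SE 0.082, edgeR adjusted p = 6.41e-09). All 3 PGK1_OE libraries stood above all 3 WT libraries for both heavy chains. MYH10 overlaps NDEL1 on the opposite strand, so its value may include reads of that gene. Per length MYH10 was the minor form, at 5.91, 6.11 and 6.25 FPKM in PGK1_OE, against 2.12, 1.74 and 2.10 FPKM in WT, while MYH9 stood at 116, 123 and 119.5 FPKM in PGK1_OE, against 89.2, 84.2 and 88.9 FPKM in WT.

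MYL6, the essential light chain that braces the myosin lever arm (chromosome 12, 56158161 to 56163496, plus strand), showed the largest rise of the myosin genes. It had 18080, 16925 and 15480 counts in the PGK1_OE libraries, against 4427, 4276 and 4612 counts in the WT libraries, or 619, 584 and 595 FPKM in PGK1_OE, against 158, 168 and 173 FPKM in WT. The difference was 3.62-fold (log2 fold change 1.86 with SE 0.042, edgeR adjusted p = 2.19e-11), far beyond the spread within either group. MYL6 overlaps MYL6B on the same strand and SMARCC2 on the opposite strand. MYL6B, its paralog, stood at 79.7 ± 3.73 CPM in PGK1_OE and 67.4 ± 2.96 CPM in WT (log2 fold change 0.24 with SE 0.053, edgeR adjusted p = 0.00140).

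The 3 regulatory light chains, whose phosphorylation switches the motor on, split in direction. MYL9 (chromosome 20, 36541484 to 36551447, plus strand), the form of smooth muscle and fibroblast stress fibres, had 1628, 1446 and 1441 counts in the PGK1_OE libraries, against 653, 589 and 660 counts in the WT libraries and rose 2.27-fold (log2 fold change 1.18 with SE 0.071, edgeR adjusted p = 3.38e-08). Its deposited FPKM was 28.0, 15.2 and 16.7 FPKM in PGK1_OE, against 6.86, 7.05 and 6.98 FPKM in WT, so PGK1_OE replicate 1 stands apart in FPKM although not in counts. MYL12A and MYL12B, the abundant nonmuscle forms, both fell, MYL12A with 165 ± 6.54 CPM in PGK1_OE and 209 ± 10.1 CPM in WT (log2 fold change -0.34 with SE 0.046, edgeR adjusted p = 3.91e-05) and MYL12B with 244 ± 8.40 CPM in PGK1_OE and 284 ± 12.6 CPM in WT (log2 fold change -0.22 with SE 0.043, edgeR adjusted p = 7.48e-04). The ratio of MYL6 to the sum of MYL9, MYL12A and MYL12B, in FPKM and chosen after the values were seen, was 1.58, 1.64 and 1.60 in the PGK1_OE libraries, against 0.360, 0.354 and 0.401 in the WT libraries.

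The kinases of the regulatory light chain among the 44 genes, MYLK, ROCK1 and ROCK2, changed little. Other kinases that act on this chain are not reported here. MYLK, myosin light chain kinase, rose 1.22-fold with 821 ± 6.68 CPM in PGK1_OE and 672 ± 39.2 CPM in WT (log2 fold change 0.29 with SE 0.043, edgeR adjusted p = 7.68e-05). ROCK2, which phosphorylates the light chain and its phosphatase, rose as well, with 94.8 ± 1.09 CPM in PGK1_OE and 74.3 ± 2.50 CPM in WT (log2 fold change 0.35 with SE 0.044, edgeR adjusted p = 1.78e-05). ROCK1, its paralog, fell slightly, with 116 ± 0.683 CPM in PGK1_OE and 127 ± 4.64 CPM in WT (log2 fold change -0.12 with SE 0.041, edgeR adjusted p = 0.0177). The ROCK1 call was lost without WT replicate 1 (edgeR adjusted p = 0.0918) and without WT replicate 3 (0.0717).

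**Figure D2:**
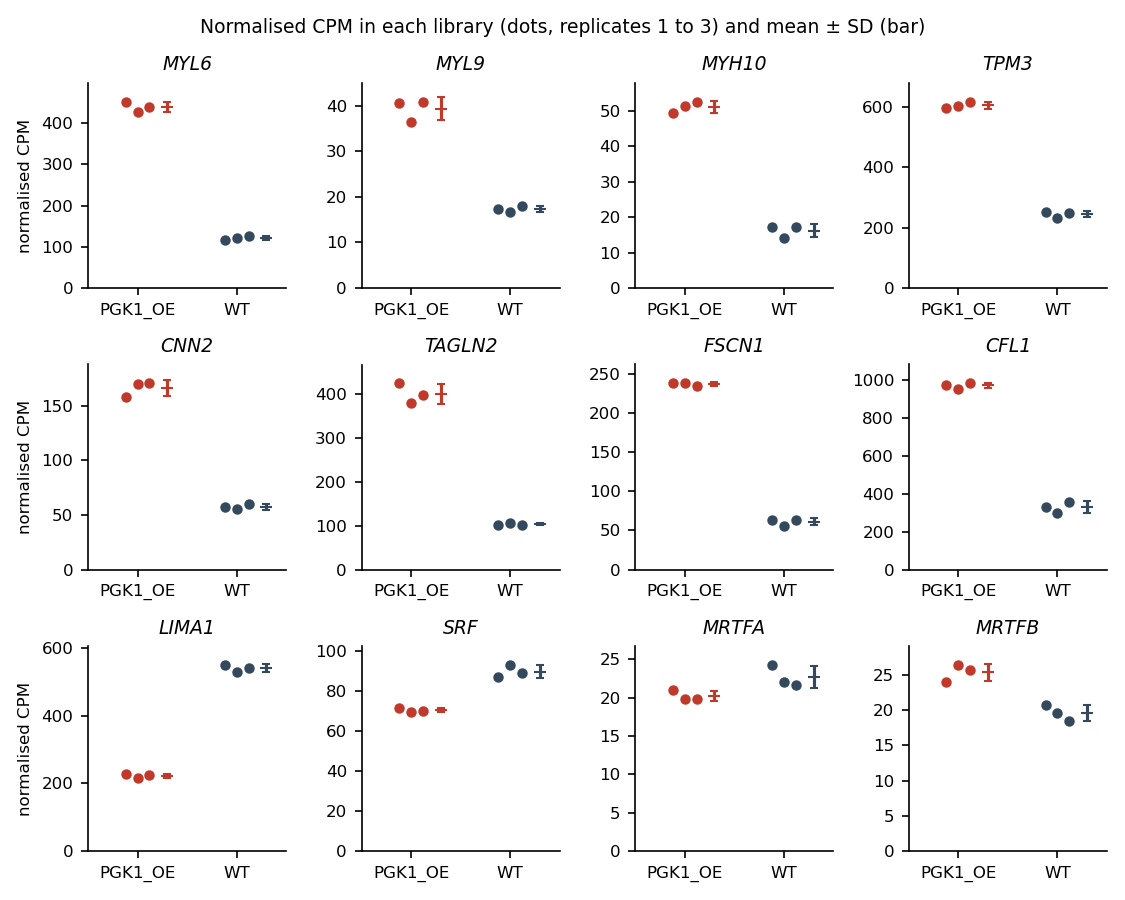
Normalised CPM (y axis, from 0) in each of the 6 libraries for the 9 genes with a called change of at least 2-fold and for SRF, MRTFA and MRTFB, with dots for replicates 1 to 3 and bars for the mean and SD. In all 12 panels the PGK1_OE dots lie wholly above or wholly below the WT dots, and the MRTFA dots lie close together.

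Among thin filament proteins 7 of 9 tested genes rose. TAGLN2, transgelin-2 (chromosome 1, 159918107 to 159925732, minus strand), had, with FSCN1, the largest rise of the 43 genes. It had 17013, 15055 and 14072 counts in the PGK1_OE libraries, against 3877, 3730 and 3733 counts in the WT libraries, or 284, 254 and 265 FPKM in PGK1_OE, against 70.4, 73.4 and 69.8 FPKM in WT. The rise was 3.89-fold (log2 fold change 1.96 with SE 0.047, edgeR adjusted p = 3.18e-11). Its smooth muscle relative TAGLN, a classical SRF target, was present at low level, with 428, 358 and 334 counts in the PGK1_OE libraries, against 231, 184 and 152 counts in the WT libraries. It rose too (log2 fold change 0.92 with SE 0.160, edgeR adjusted p = 2.77e-04), with the PGK1_OE libraries all above the WT libraries, but it overlaps PCSK7 on the opposite strand and its value is uncertain.

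Calponins, which bind actin and hold filaments together, differed by isoform. CNN2 (chromosome 19, 1026581 to 1039068, plus strand), the calponin of nonmuscle cells, had 6304, 6742 and 6007 counts in the PGK1_OE libraries, against 2163, 1945 and 2204 counts in the WT libraries and rose 2.89-fold (log2 fold change 1.53 with SE 0.050, edgeR adjusted p = 2.76e-10). In FPKM it stood at 70.3, 76.7 and 75.4 FPKM in PGK1_OE, against 26.4, 25.1 and 28.7 FPKM in WT. CNN3, acidic calponin, was higher by little, with 352 ± 5.89 CPM in PGK1_OE and 309.8 ± 21.0 CPM in WT (log2 fold change 0.19 with SE 0.048, edgeR adjusted p = 0.00435), and missed the threshold in limma on log2(FPKM + 1) without a filter on low values (limma adjusted p = 0.0510). CNN1, the smooth muscle calponin, had the few counts given above and was not tested. GENCODE 29 names 11 pseudogenes after CNN2. CALD1, caldesmon, which blocks myosin on the filament, fell, with 132 ± 7.45 CPM in PGK1_OE and 247 ± 5.32 CPM in WT (log2 fold change -0.90 with SE 0.046, edgeR adjusted p = 8.25e-09).

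All 4 tropomyosin genes were well expressed and they did not move together. TPM3 (chromosome 1, 154155304 to 154194648, minus strand) had 23810, 23939 and 21749 counts in the PGK1_OE libraries, against 9600, 8229 and 9104 counts in the WT libraries and rose 2.47-fold (log2 fold change 1.30 with SE 0.040, edgeR adjusted p = 1.81e-10). TPM2 rose, with 241 ± 4.33 CPM in PGK1_OE and 123 ± 7.43 CPM in WT (log2 fold change 0.97 with SE 0.047, edgeR adjusted p = 5.61e-09), and TPM4, the most abundant tropomyosin per length, stood at 1150 ± 18.5 CPM in PGK1_OE and 852 ± 31.2 CPM in WT (log2 fold change 0.43 with SE 0.037, edgeR adjusted p = 6.62e-07). TPM1 did not pass, with 216 ± 9.91 CPM in PGK1_OE and 225 ± 4.58 CPM in WT and overlapping groups. Its log2 fold change was -0.057, with a 95% interval of -0.15 to 0.035 and an edgeR adjusted p of 0.246, and it passed as lower with scaling by library totals (edgeR adjusted p = 0.0439).

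Cross-linkers went in both directions, 4 up and 4 down of 9, with a median log2 fold change of -0.054. Their summed FPKM was 1161, 1170 and 1156 in PGK1_OE, against 1223, 1211 and 1172 in WT, so all 3 PGK1_OE libraries lay slightly below the WT libraries. FSCN1, fascin, which packs the parallel bundles of filopodia and invasive protrusions (chromosome 7, 5592823 to 5606655, plus strand), had 9533, 9450 and 8262 counts in the PGK1_OE libraries, against 2400, 1978 and 2332 counts in the WT libraries. Its level was 78.8, 78.8 and 77.0 FPKM in PGK1_OE, against 21.9, 19.2 and 21.8 FPKM in WT, a 3.88-fold rise (log2 fold change 1.96 with SE 0.052, edgeR adjusted p = 6.66e-11). The alpha-actinins, which bundle antiparallel filaments in stress fibres, rose, ACTN4 with 956 ± 16.7 CPM in PGK1_OE and 576 ± 38.7 CPM in WT (log2 fold change 0.73 with SE 0.047, edgeR adjusted p = 6.02e-08) and ACTN1 with 710.5 ± 9.79 CPM in PGK1_OE and 483 ± 31.5 CPM in WT (log2 fold change 0.56 with SE 0.046, edgeR adjusted p = 5.35e-07). ACTN4 overlaps CAPN12 on the opposite strand. FLNA, filamin A, the orthogonal cross-linker, had 76734, 78334 and 68158 counts in the PGK1_OE libraries, against 60257, 57574 and 58053 counts in the WT libraries and rose 1.21-fold (log2 fold change 0.28 with SE 0.032, edgeR adjusted p = 9.39e-06).

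The cross-linkers that fell were LIMA1, FLNC, LCP1 and PLS3. LIMA1, EPLIN, which stabilises bundles and links them to adherens junctions (chromosome 12, 50175788 to 50283546, minus strand), had 9090, 8547 and 7878 counts in the PGK1_OE libraries, against 20868, 18677 and 19833 counts in the WT libraries. In FPKM this was 59.6, 56.5 and 58.7 FPKM in PGK1_OE, against 152, 144 and 143 FPKM in WT, with no overlap (log2 fold change -1.28 with SE 0.037, edgeR adjusted p = 1.09e-10). FLNC, the muscle filamin, fell with 127 ± 7.97 CPM in PGK1_OE and 222 ± 2.97 CPM in WT (log2 fold change -0.81 with SE 0.047, edgeR adjusted p = 2.63e-08). LCP1, L-plastin, a bundling protein of blood cells that many tumour lines also express, was the fourth most abundant mRNA of the system in WT by FPKM. It fell with 979 ± 35.1 CPM in PGK1_OE and 1603 ± 20.4 CPM in WT (log2 fold change -0.71 with SE 0.036, edgeR adjusted p = 8.30e-09), and PLS3, T-plastin, fell by less with 411 ± 9.04 CPM in PGK1_OE and 446 ± 5.58 CPM in WT (log2 fold change -0.12 with SE 0.034, edgeR adjusted p = 0.00914). PALLD, palladin, a scaffold of stress fibres, did not pass (log2 fold change -0.054, 95% interval -0.16 to 0.052, edgeR adjusted p = 0.338). It overlaps CBR4 and DDX60L on the opposite strand.

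All 4 focal adhesion genes rose. VCL, vinculin, which reinforces adhesions under tension (chromosome 10, 73995193 to 74121363, plus strand), had 28943, 27637 and 24637 counts in the PGK1_OE libraries, against 14011, 11736 and 13817 counts in the WT libraries. The level was 114, 111 and 109 FPKM in PGK1_OE, against 60.5, 54.8 and 54.8 FPKM in WT, a 1.96-fold rise (log2 fold change 0.97 with SE 0.048, edgeR adjusted p = 6.48e-09). TLN1, talin, which activates integrins and binds vinculin, had 23017, 23557 and 20245 counts in the PGK1_OE libraries, against 15884, 13750 and 15289 counts in the WT libraries and rose 1.42-fold (log2 fold change 0.51 with SE 0.039, edgeR adjusted p = 2.71e-07). The PGK1_OE libraries stood above the WT libraries for both. ZYX, zyxin, a tension-sensitive LIM protein, rose with 254 ± 2.52 CPM in PGK1_OE and 168 ± 12.7 CPM in WT (log2 fold change 0.60 with SE 0.051, edgeR adjusted p = 7.13e-07). PXN, paxillin, the scaffold of the adhesion, rose barely, with 496 ± 10.6 CPM in PGK1_OE and 464 ± 14.1 CPM in WT (log2 fold change 0.10 with SE 0.036, edgeR adjusted p = 0.0337). The PXN call was lost without PGK1_OE replicate 1 (edgeR adjusted p = 0.0567), PGK1_OE replicate 3 (0.0746) or WT replicate 3 (0.0593). It was also lost with library totals (edgeR adjusted p = 0.204) and in limma on log2(FPKM + 1) (limma adjusted p = 0.143). The FPKM values of PXN overlapped, at 124, 107 and 118 FPKM in PGK1_OE, against 97.7, 102 and 117 FPKM in WT. VCL, TLN1 and ZYX overlap AP3M1, CREB3 and EPHA1 on the opposite strand.

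Of 6 genes of filament assembly and turnover 5 rose. CFL1, cofilin, which severs and disassembles filaments (chromosome 11, 65823022 to 65862026, minus strand), had 39098, 37864 and 34699 counts in the PGK1_OE libraries, against 12548, 10516 and 13119 counts in the WT libraries. Its level was 714, 696 and 716 FPKM in PGK1_OE, against 248, 225 and 265 FPKM in WT, a 2.95-fold rise (log2 fold change 1.56 with SE 0.061, edgeR adjusted p = 1.19e-08). PFN1, profilin, which delivers monomers to growing ends, rose by less, with 904 ± 6.43 CPM in PGK1_OE and 692 ± 32.5 CPM in WT (log2 fold change 0.38 with SE 0.039, edgeR adjusted p = 3.24e-06). The ratio of CFL1 to PFN1 in FPKM, chosen after the values were seen, was 0.685, 0.668 and 0.701 in the PGK1_OE libraries, against 0.297, 0.287 and 0.315 in the WT libraries. The formins DIAPH1 and DIAPH3, which elongate unbranched filaments, rose, DIAPH1 with 396 ± 10.5 CPM in PGK1_OE and 244 ± 2.66 CPM in WT (log2 fold change 0.70 with SE 0.036, edgeR adjusted p = 8.57e-09) and DIAPH3 with 121 ± 5.75 CPM in PGK1_OE and 84.3 ± 4.69 CPM in WT (log2 fold change 0.52 with SE 0.053, edgeR adjusted p = 3.26e-06). CFL1 overlaps MUS81 and SNX32 and PFN1 overlaps ENO3, each on the opposite strand, and pseudogenes are named after both (8 and 10).

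The Ena/VASP proteins, which protect growing filament ends from capping, differed in direction. VASP rose with 104 ± 2.29 CPM in PGK1_OE and 65.2 ± 3.09 CPM in WT (log2 fold change 0.68 with SE 0.048, edgeR adjusted p = 1.30e-07). ENAH fell slightly with 67.9 ± 0.734 CPM in PGK1_OE and 74.2 ± 3.58 CPM in WT (log2 fold change -0.13 with SE 0.049, edgeR adjusted p = 0.0358). DESeq2 did not keep the ENAH call (DESeq2 adjusted p = 0.0558), nor did edgeR without any 1 library other than WT replicate 1, at an edgeR adjusted p of 0.112, 0.0763 and 0.0797 without PGK1_OE replicates 1, 2 and 3, and 0.148 and 0.0772 without WT replicates 2 and 3.

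Of SRF and its cofactors, SRF fell, MRTFB rose and MRTFA did not pass. SRF, whose own promoter holds the pair of CArG boxes shown above, had 2860, 2757 and 2473 counts in the PGK1_OE libraries, against 3290, 3293 and 3254 counts in the WT libraries, or 15.5, 15.1 and 15.1 FPKM in PGK1_OE, against 19.4, 21.0 and 19.8 FPKM in WT. It fell to 0.785 of the WT level (log2 fold change -0.35 with SE 0.045, edgeR adjusted p = 2.42e-05), with all PGK1_OE libraries below all WT libraries. MRTFA had 841, 787 and 698 counts in the PGK1_OE libraries, against 921, 778 and 793 counts in the WT libraries and did not pass (log2 fold change -0.16, 95% interval -0.33 to 0.0055, edgeR adjusted p = 0.0766), although it passed as lower with library totals (edgeR adjusted p = 0.0291). MRTFB had 963, 1050 and 905 counts in the PGK1_OE libraries, against 786, 695 and 676 counts in the WT libraries and rose (log2 fold change 0.37 with SE 0.077, edgeR adjusted p = 9.84e-04). In limma on log2(FPKM + 1) MRTFB did not pass (log2 fold change 0.091, limma adjusted p = 0.447). Its FPKM values overlapped, at 2.61, 3.07 and 2.79 FPKM in PGK1_OE, against 3.02, 2.65 and 2.14 FPKM in WT. FPKM over CPM by library totals also varied for MRTFB, at 0.110, 0.118 and 0.111 in PGK1_OE, against 0.144, 0.131 and 0.115 in WT. The cause was not tested. MRTFA overlaps SGSM3 on the opposite strand. These are mRNA levels, and the location and activity of the proteins were not measured here.

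Of the 7 genes with a CArG box in the window, 6 rose (ACTG1, CNN2, FLNA, MYLK, ROCK2 and TPM4) and SRF fell, with a median log2 fold change of 0.35. Of the 33 matched genes without one, 19 rose, 10 fell, 3 did not pass and CNN1 was not tested, with a median of 0.38. Among all tested genes with a matched promoter, 42.6% of 108 with a box rose and 35.2% fell, against 37.4% and 36.2% of 10720 without one. These counts are a description and were not tested. For MYLK and ROCK2 the window lies well inside the gene, as given above, and which start the counted transcripts use was not tested.

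The make-up of each filament family by isoform was set out in FPKM. Of 17 shares in 8 families, 16 did not overlap between the groups (share of MYL12B excepted). Shares within a family depend on each other, so the 17 are not separate results, and no like count was made over other genes. The 16 include CNN1, at 2 to 13 counts per library, whose FPKM over CPM by library totals varied 2.58-fold among libraries. Each of the 16 gave an exact two-sided permutation p of 0.1, the smallest that 3 against 3 libraries allow, or 0.106 after Benjamini-Hochberg adjustment. ACTB made up 59.3% ± 0.333 in PGK1_OE and 54.7% ± 0.392 in WT of the actin mRNA, ACTG1 40.1% ± 0.250 in PGK1_OE and 43.7% ± 0.558 in WT, and ACTA2 0.613% ± 0.0860 in PGK1_OE and 1.54% ± 0.255 in WT. Among the tropomyosins TPM3 took 22.2% ± 1.90 in PGK1_OE and 12.5% ± 0.196 in WT, and TPM2 21.4% ± 0.768 in PGK1_OE and 17.0% ± 0.465 in WT. TPM1 took 12.3% ± 0.235 in PGK1_OE and 19.7% ± 1.01 in WT, and TPM4, the largest part in both groups, 44.1% ± 1.36 in PGK1_OE and 50.9% ± 0.369 in WT. The shares of TPM1 and TPM4 were lower in PGK1_OE although the level of TPM4 rose and TPM1 did not pass, beside larger rises of TPM2 and TPM3.

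CNN2 made up 31.3% ± 0.702 in PGK1_OE and 15.3% ± 0.817 in WT of calponin mRNA, with CNN3 as most of the rest. PLS3 was 32.9% ± 1.29 in PGK1_OE and 24.7% ± 0.405 in WT of the plastin pair although its own level fell, beside the larger fall of LCP1. FLNC was 5.57% ± 0.250 in PGK1_OE and 11.1% ± 0.0570 in WT of the filamin pair, and MYH10 4.86% ± 0.113 in PGK1_OE and 2.22% ± 0.166 in WT of the heavy chain pair. ACTN4 was 56.6% ± 0.857 in PGK1_OE and 51.4% ± 3.47 in WT of the alpha-actinin pair. FPKM over CPM by library totals varied 1.38-fold among libraries for ACTN4 and 1.21-fold for TPM3, so their shares are uncertain to that extent. MYL9 was 5.29% ± 1.58 in PGK1_OE and 1.56% ± 0.0699 in WT of regulatory light chains, a mean raised by PGK1_OE replicate 1 at 7.11% against 4.27% and 4.49% in the other PGK1_OE libraries. MYL12A was 43.2% ± 1.26 in PGK1_OE and 46.8% ± 0.226 in WT. MYL12B was 51.5% ± 0.909 in PGK1_OE and 51.6% ± 0.216 in WT, which did not differ beyond its spread in FPKM (exact permutation p = 1, two-sided). With shares of counts in place of FPKM, the PGK1_OE minus WT difference of MYL12B was -1.23 percentage points.

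**Figure D3:**
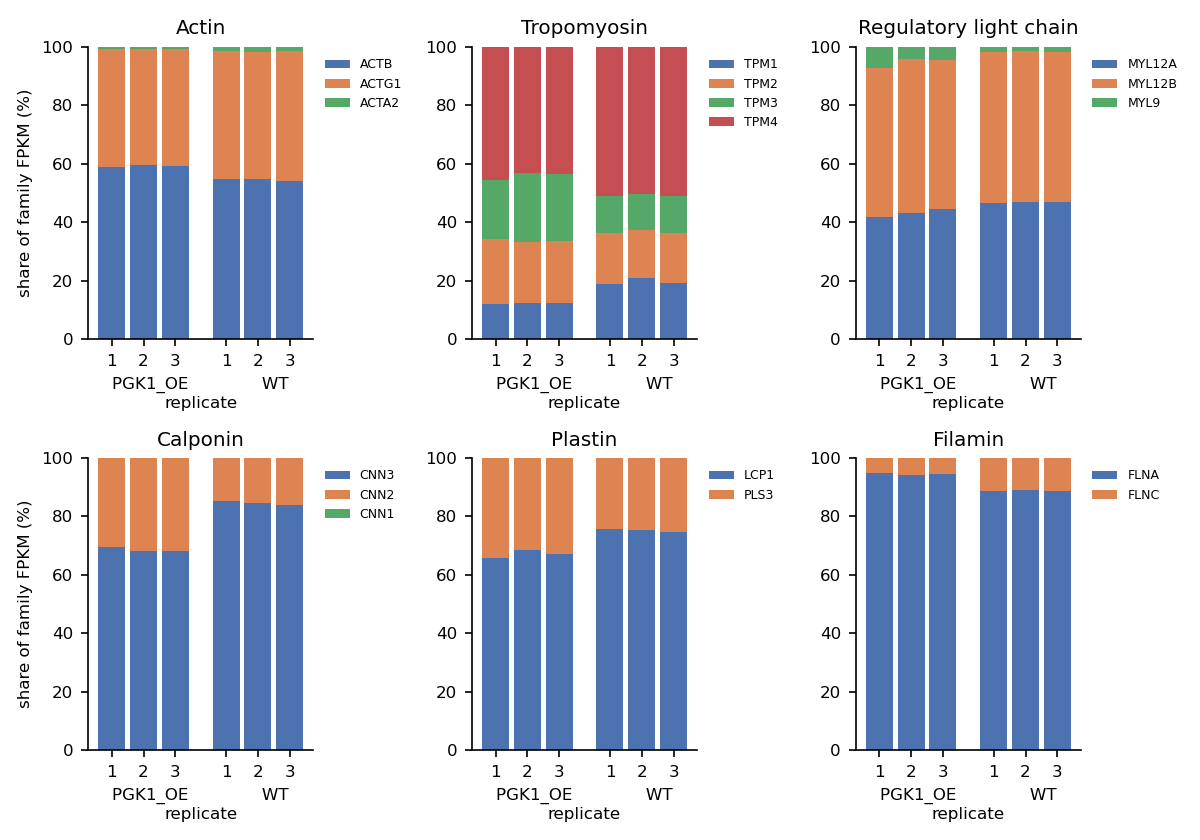
Share of each isoform in the summed FPKM of its family (y axis, percent) in each library (x axis, replicates 1 to 3 of PGK1_OE and of WT), as stacked bars for 6 families. CNN2 averages 31.3% of the calponin bars in PGK1_OE and 15.3% in WT, and TPM3 22.2% and 12.5% of the tropomyosin bars.

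By FPKM the order of the most abundant mRNAs changed below the third place. ACTB, ACTG1 and PFN1 led in both groups. CFL1, MYL6 and TPM4 followed in PGK1_OE, at means of 709 ± 11.2, 599 ± 18.0 and 417 ± 3.52 FPKM. In WT the same places were held by LCP1, TPM4 and CFL1, at 416 ± 7.85, 322 ± 9.84 and 246 ± 20.3 FPKM. In WT the ranges of CFL1 (248, 225 and 265 FPKM) and of the next gene, MYL12B (228, 245 and 221 FPKM), overlapped.

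The rest of the actin machinery was read through 5 further lists, and from each up to 3 rises and 3 falls are named by size of change. In all, 18 of 25 tested capping, severing and monomer-binding genes rose and 3 fell, with 84.0% called and a median log2 fold change of 0.38. The rises named are TMSB10, a monomer-sequestering thymosin (427 ± 23.9 CPM in PGK1_OE and 157 ± 8.90 CPM in WT, log2 fold change 1.44), TMOD1, which caps pointed ends (1.27), and TWF2, a twinfilin (1.12). MICAL2, an oxidase that depolymerises actin, fell with 508 ± 3.53 CPM in PGK1_OE and 1109 ± 25.2 CPM in WT (log2 fold change -1.13 with SE 0.033, edgeR adjusted p = 1.44e-10), as did CORO1C (-0.44) and MICAL1 (-0.12). Of 21 Arp2/3 complex genes and activators, which nucleate branched filaments, 9 rose, 5 fell and 7 did not pass (66.7% called, median 0.032). The subunits ARPC5 (1.18), ARPC3 (1.05) and ARPC1B (0.91) rose, while ABI2 (-0.49), WASL (-0.26) and ABI1 (-0.22), of the upstream activators, fell.

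Of 27 adaptors and kinases of focal adhesions 16 rose and 7 fell (85.2% called, median 0.23). KANK2, which binds talin at the adhesion rim, stood at 80.4 ± 4.08 CPM in PGK1_OE and 6.74 ± 3.58 CPM in WT (log2 fold change 3.57 with SE 0.388, edgeR adjusted p = 0.00115), and the tensins TNS2 (2.06) and TNS1 (1.55) rose. The kindlins FERMT2 (-0.73) and FERMT1 (-0.63), which activate integrins with talin, fell, as did LPP (-0.49).

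Of 20 tested relatives of the 44 genes 6 rose and 8 fell (70.0% called, median -0.0029). The formin gene DIAPH2 fell with 30.0 ± 1.61 CPM in PGK1_OE and 52.2 ± 1.49 CPM in WT (log2 fold change -0.80 with SE 0.059, edgeR adjusted p = 2.07e-07), and the light chain gene MYL5 (-1.36) fell. The formins FHOD1 (2.02) and INF2 (1.44) and the smooth muscle protein gene SMTN (0.97) rose. Of 18 tested genes known as SRF or MRTF targets outside the 44, 6 rose and 9 fell (83.3% called, median -0.12). EGR1, an immediate early transcription factor gene, had 87, 68 and 49 counts in the PGK1_OE libraries, against 2353, 1155 and 2023 counts in the WT libraries. EGR1 (-4.82), ANKRD1 (-2.39) and CCN1 (-1.72) fell, and TGFB1 (1.35), THBS1 (1.31) and SMTN rose. All genes named from these lists passed an edgeR adjusted p of 0.05 unless stated, some genes stand on 2 lists, and the lists were not tested as sets. Of all entries 71.2% were called, 35.4% higher and 35.8% lower. Of entries with a mean log2 CPM of at least 5, 84.0% were called and 43.1% were called higher. The lists were not matched to these entries for level.

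**Figure D4:**
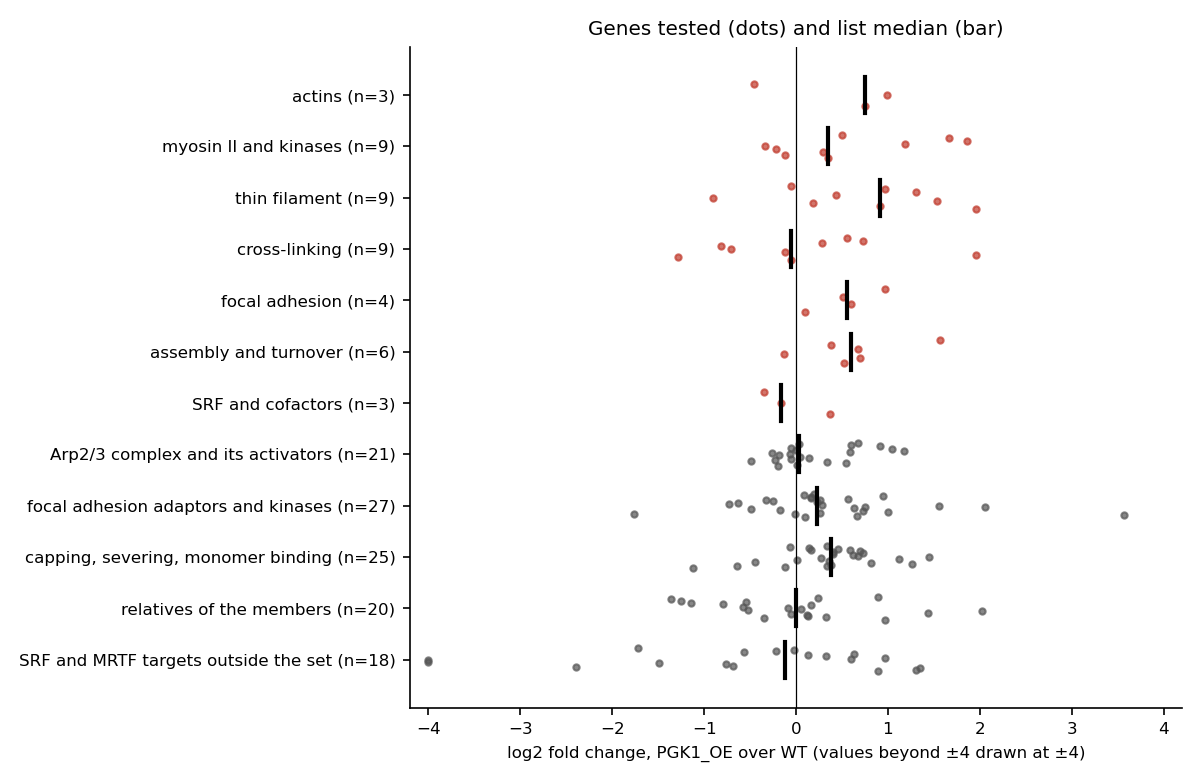
Log2 fold change of PGK1_OE over WT (x axis) for tested genes (dots) in the 7 role groups of the system, in red, and in the 5 further lists, in grey, with a black bar at each median. The medians of the actin, thin filament, focal adhesion and assembly groups lie above 0.5, and those of the Arp2/3 and relatives lists lie near 0. Values beyond 4 in size are drawn at the edge, which holds EGR1 and EGR2, and EGR2 has 0 counts in all PGK1_OE libraries.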

How the data were processed

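PolyA RNA-seq of HT1080 cells gave 3 PGK1_OE and 3 WT libraries, grouped by their labels. The deposited tables hold raw read counts per gene and FPKM values per gene, both made by the authors. fastp and HISAT with build hg38 are named per the submitters' processing notes, while versions, counter, annotation and strand setting were not given in the sources used here. Deposited counts total 34425162 to 40538274 per library. No 2 libraries of a group agreed within sampling noise (chi-square over degrees of freedom 7.93 to 15.2).

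Counts were filtered with filterByExpr, scaled by TMM and tested with the robust quasi-likelihood test of edgeR 4.0.16 (R 4.3.3), with Benjamini-Hochberg adjustment over all 14322 entries kept of 21619 and a threshold of 0.05, after a check on simulated data. The SE was obtained as the size of the log2 fold change over the square root of F. Isoform shares came from the deposited FPKM, with exact two-sided permutation tests (SciPy 1.17.1). Alternatives used DESeq2 1.42.0 and limma 3.58.1, other scalings and filters, FPKM with pseudocounts of 1 and 0.1, a replicate block and each library left out. Gene coordinates and overlaps are from GENCODE 29 (GRCh38), and promoters from RefSeq (GRCh38.p14). A read counted without strand cannot be assigned between overlapping genes.

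The genes and lists were chosen with earlier results of these data known. All 44 genes are named, with library values for those changed at least 2-fold and for ACTB, ACTG1, MYH9, MYL9, VCL, TLN1, FLNA, SRF, MRTFA and MRTFB, and from each further list up to 3 rises and 3 falls by size, among genes past the threshold, without overlap and at a mean of at least 1 log2 CPM. Some genes that this rule names and 1 further list are not reported here.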

Additional observations from a re-analysis of the deposited data

How the results depend on the processing

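The counts of genes stayed within 1.5 times of their value under all alternatives run. Other scalings (RLE size factors, library totals, PGK1 left out), other filters, DESeq2, limma-voom and limma on log2(FPKM + 1) or log2(FPKM + 0.1) gave 36 to 41 of the genes changed, the lowest at an adjusted p of 0.01. With 1 library left out, 37 to 39 changed, 28 to 29 higher and 9 to 10 lower, 9 to 12 changed at least 2-fold, and 9694 to 9901 of all entries changed. Leaving out a library kept the isoform shares without overlap at 16 to 17 of 17. The calls of 35 genes held in all 17 alternatives and those of 8 (ACTA2, ROCK1, CNN3, TPM1, PXN, ENAH, MRTFA and MRTFB) changed in at least 1. The PGK1_OE minus WT difference of the MYL12B share was -0.0540 percentage points in FPKM. It turned to 0.236 without PGK1_OE replicate 1, 0.180 without PGK1_OE replicate 3 and 0.0703 without WT replicate 1. The difference was -0.578 without PGK1_OE replicate 2 and lowest, at -1.23, with shares of counts in place of FPKM. The cause was not tested.

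Replicate numbers are shared by the groups, but the labels give them no meaning, and the correlations of same-numbered deviations from the group means were -0.0134, -0.0129 and 0.0952. With 3 libraries a group, these correlations cannot decide whether libraries of the same number share more than that number. With the replicate number as a block 39 of the genes changed in place of 40, 29 of them higher, and 9943 of all entries in place of 10195. CNN1, at 2 to 13 counts per library, was removed by the filter on low counts and has no test in the main analysis, and the exact tests on shares cannot go below 0.1 with 3 libraries a group.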
